A study of Mus musculus with 30 samples.

Results

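The first day of differentiation was measured by RNA sequencing in 4 libraries of the mouse embryonic stem (ES) cell line E14Tg2a.IV, called E14 here: 2 of ES cells at day 0 and 2 of embryoid bodies (EBs) at day 1, of 30 samples in the series. The 4 were chosen by their labels, as the day 0 and day 1 libraries of the E14 time course, whose 10 RNA libraries cover days 0 to 4. E14 cells have a 129/Ola background and are labelled wild type in every library. ES cells grew on gelatin, without feeder cells, in a medium with fetal bovine serum and leukemia inhibitory factor (LIF). EBs are the aggregates that such cells form in suspension, and the labels give their handling only as the supplier's procedure. Activin A and SB431542 stand in the shared treatment text of the series, and the labels of these 4 libraries give neither. Whether the 2 libraries of a day came from separate cultures is not stated in the labels, so p-values measure only the spread between these samples, which may be technical, and all 10 libraries come from 1 line.

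Mouse ES cells in serum and LIF hold a naive pluripotent state, in which LIF acts through its receptor and the transcription factor Stat3 on a network that includes Klf4, Tfcp2l1 and Esrrb, around the core factors Pou5f1 and Sox2. Once LIF is withdrawn, such cells are known to pass through a formative and then a primed state, like the epiblast of the embryo around implantation, with Otx2, Fgf5, Pou3f1 and the DNA methyltransferases Dnmt3a and Dnmt3b. Streak, mesoderm and endoderm genes follow later. In bulk RNA, fewer cells of a type and less RNA per cell cannot be told apart.

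Values are normalised read counts, the reads of a gene divided by 1 size factor per library, always given in the order replicate 1, replicate 2. Of 23284 genes in the table, 15841 passed a filter on low reads and were tested. The 4 libraries held 30597340 and 26966972 reads at day 0 and 37917776 and 39835808 at day 1. The log2 fold change is the mean of day 1 minus the mean of day 0 on the log2(value + 1) scale, which understates the change of low genes, and stands with its standard error (SE, n = 2 libraries a day). "Rose", "fell" and "called" mean a Benjamini-Hochberg adjusted p under 0.05 in limma.

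The day 0 libraries stood apart from each other more than any later pair. Between the 2 day 0 libraries 24.9% of tested genes differed by over 2-fold, against 10.6% at day 1 and 3.86% to 7.37% at days 2 to 4. Spearman's correlation over the tested genes, a description since genes are not replicates, was 0.962 at day 0 and 0.985 at day 1. Since the fit pools its spread over the 5 days, the spread it applies to day 0 is smaller than that of the day 0 libraries themselves. For that reason gene groups are also given against each day 0 library alone. Such a fit takes the lone library to vary like the other groups. Against replicate 1 alone it called a far larger share of all tested genes than against replicate 2 alone. Counts for a list against 1 library therefore cannot be set directly beside counts against the other.

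Over all genes, 277 were called higher at day 1 (1.75% of those tested) and 246 lower (1.55%), of which 250 and 230 changed by over 2-fold. At an unadjusted p under 0.05 the counts were 1699 and 1490. Called genes had groups that did not overlap in all 523 cases, while over all tested genes both day 1 libraries lay above both day 0 libraries for 19.8% and below them for 19.7%. When day 0 replicate 1 was left out, 339 genes were called higher (2.14%) and 227 lower (1.43%), and when replicate 2 was left out, 2669 (16.8%) and 2474 (15.6%). Without EB day 1 replicate 1 the counts were 118 and 107, without EB day 1 replicate 2 they were 25 and 38, and with a weight estimated for each day's libraries, 0.249 at day 0, they were 23 and 18. A fit of the 4 libraries alone, with 2 residual degrees of freedom, called 10 genes: Otx2, Pou3f1, Sall2 and Fgf15 higher, and Socs3, Klf4, Lama1, Acta1, Tagln and Synpo2l lower. All of these but Synpo2l belong to the gene groups described below, and Lama1 and Synpo2l were singled out after their values were seen.

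**Figure D1:**
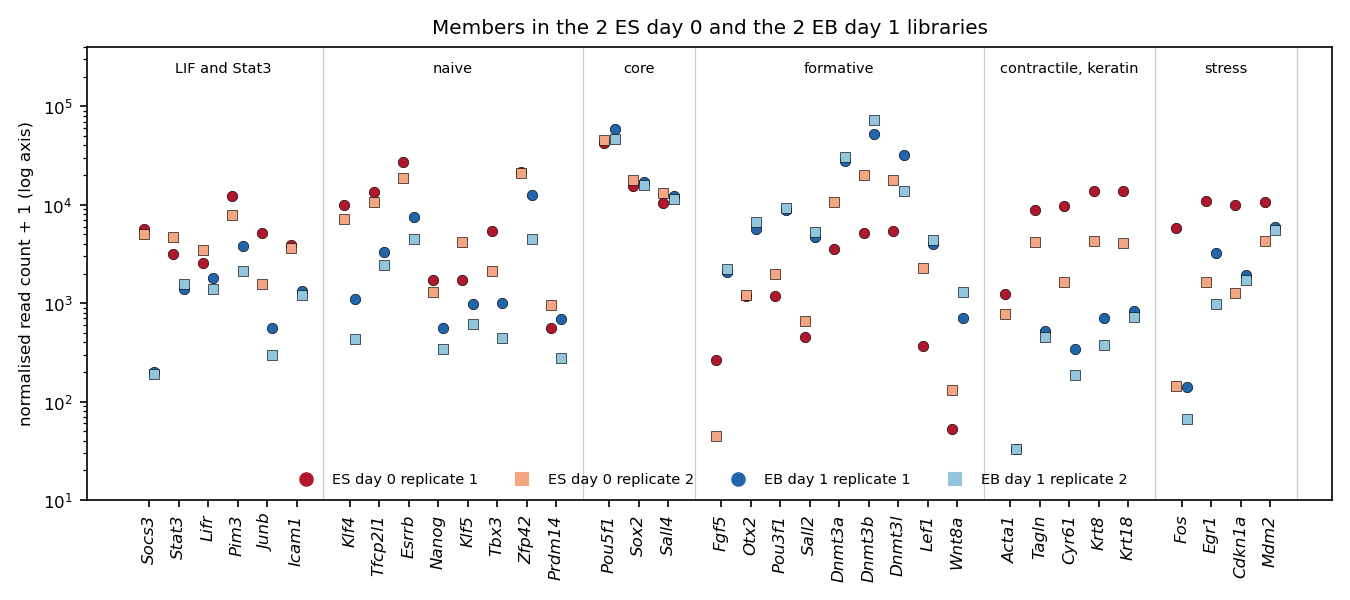
Normalised read count plus 1 on a log axis (y) for genes of 6 groups (x) in each of the 4 libraries, with red and orange points for ES day 0 replicates 1 and 2 and blue points for EB day 1. Socs3, Klf4, Acta1 and Tagln lie far lower in both blue points, Otx2, Pou3f1 and Sall2 higher, and Fos and Cdkn1a have the blue points near the orange one, with the red one apart.

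LIF signalling genes fell together. Of 24 tested genes of the LIF and Stat3 list, 11 fell and none rose, with a median log2 fold change of -1.02, where the median over all tested genes was 0.01. Against day 0 replicate 2 alone the list's median was -1.13, and against replicate 1 alone it was -0.93. The list's median log2 ratio of the day 0 libraries was 0.02, with 12 of the 24 genes higher in replicate 1 and 3 over 2-fold apart each way. The stretches upstream of the annotated starts that hold the Stat motif TTCNNNGAA are shown for Socs3 and Icam1, both called lower. The motif was chosen because Stat3 is the factor through which LIF acts. Sbno2, a list member that was not called, holds the motif upstream as well. The stretches shown come from RefSeq (GRCm38.p6), and the motif stands in capitals.

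Socs3 (chr11:117969492-117969540, minus strand): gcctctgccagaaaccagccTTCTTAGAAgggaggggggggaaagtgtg

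Icam1 (chr9:21015878-21015926, plus strand): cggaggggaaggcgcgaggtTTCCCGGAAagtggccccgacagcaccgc

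The motif starts at position -154 from the annotated start in Socs3 and at -42 in Icam1. Searched on both strands of windows from 250 bases before to 50 after the start, TTCNNNGAA was found for 4 of the 20 LIF and Stat3 genes with a window, 2 of them among the 10 called lower, and for 8.01% of the 11038 tested genes with one. The list was drawn up around LIF and Stat3, so its share describes the choice of genes. A match of letters describes the sequence and is not a measured binding site.

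Socs3, the feedback inhibitor that Stat3 induces and that blocks the LIF receptor complex, had 5619.5 and 5026 at day 0 and 199.9 and 191 at day 1. Both day 1 libraries lay far below both day 0 libraries, which were close to each other, with a log2 fold change of -4.76 ± 0.36, adjusted p = 9.7e-04. Its call held in each fit that left out a library, with weights and with the 4 libraries alone. Icam1, an adhesion molecule, had 3873 and 3645 at day 0 and 1324 and 1206 at day 1, again with tight pairs (-1.57 ± 0.19, adjusted p = 0.0035). The receptor subunit Lifr had 2585 and 3507 at day 0 and 1807 and 1389 at day 1 (-0.93 ± 0.20, adjusted p = 0.039), and Stat3 itself had 3123 and 4729 at day 0 and 1393 and 1564 at day 1 (-1.38 ± 0.31, adjusted p = 0.041). For both, day 0 replicate 2 was the higher library of its pair and no day 1 library reached day 0. The survival kinases Pim1 and Pim3 fell by log2 fold changes of -0.96 and -1.77. Junb, an AP-1 subunit, had 5216 and 1583 at day 0 and 562 and 299 at day 1 (-2.81 ± 0.51, adjusted p = 0.020), with a day 0 pair over 2-fold apart. Bcl3, a co-regulator of NF-κB, had 643 and 2099 at day 0 and 246 and 89.4 at day 1 (-2.96 ± 0.68, adjusted p = 0.047), with the day 0 pair apart in the opposite direction. Socs1 (341 and 129 at day 0, 234 and 157 at day 1) and Sbno2 (2178 and 3088, 1821 and 1792) did not pass the test. Without day 0 replicate 1, Pim1 missed the threshold (-0.98, adjusted p = 0.071). Of the 11 falls, 7 were called without EB day 1 replicate 1, 4 without EB day 1 replicate 2 (Socs3, Klf4, Tfcp2l1 and Icam1) and 2 with library weights (Socs3 and Tfcp2l1).

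Part of the naive network fell on the same day. Over all tested genes 1.75% rose and 1.55% fell. At such shares 0 calls among the 16 core genes described below do not stand out. Of 27 tested naive pluripotency genes, 7 fell (25.9%) and none rose, with a median of -0.96, and -0.95 and -1.29 against day 0 replicates 2 and 1 alone. Klf4, a zinc finger factor downstream of Stat3, had 9848 and 7139 at day 0 and 1093 and 434 at day 1, so both pairs were ordered with replicate 1 higher and did not overlap (-3.60 ± 0.44, adjusted p = 0.0040). Tfcp2l1, another direct Stat3 target, had 13529.7 and 10782 at day 0 and 3294 and 2425 at day 1 (-2.10 ± 0.21, adjusted p = 0.0029) and kept its call in each fit without 1 library and with library weights. Esrrb, an orphan nuclear receptor that sustains self-renewal, had 27007 and 18763 at day 0 and 7548 and 4527 at day 1 (-1.95 ± 0.31, adjusted p = 0.012), with less than 2-fold between libraries of a day. Nanog, the homeobox factor of the naive state, had 1723 and 1313 at day 0 and 563 and 343 at day 1 (-1.77 ± 0.27, adjusted p = 0.010). Tbx3, a T-box factor of the same network, had 5429.6 and 2107 at day 0 and 994 and 447 at day 1, the day 0 pair being over 2-fold apart (-2.34 ± 0.47, adjusted p = 0.029), and without day 0 replicate 1 it was no longer called (-1.66, adjusted p = 0.075). Klf5 had 1724 and 4172 at day 0 and 979 and 620.4 at day 1, higher in day 0 replicate 2 (-1.78 ± 0.38, adjusted p = 0.034). Klf4 and Tfcp2l1 were the only 2 of the 7 called when EB day 1 replicate 2 was left out. With EB day 1 replicate 1 left out, Klf5 and Stat3 were no longer called (adjusted p = 0.065 and 0.15).

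Other naive genes did not pass, and several of them differed within day 1. Zfp42 (Rex1), a zinc finger marker of naive cells, had 21590.2 and 20872 at day 0 and 12667 and 4468 at day 1: the day 0 libraries were alike, and day 1 replicate 2 stood far below replicate 1 (-1.50 ± 0.41, adjusted p = 0.083). Klf2 had 16747 and 8589 at day 0 and 6523 and 4802 at day 1, lower in both day 1 libraries (-1.10 ± 0.34, adjusted p = 0.11). Nr0b1, a corepressor of the naive network, had 8496 and 4722 at day 0 and 4816 and 2214 at day 1, and its groups overlapped in level (-0.96 ± 0.46, adjusted p = 0.28). Prdm14, which represses FGF signalling and the DNA methyltransferases, had 559.8 and 955 at day 0 and 690.1 and 276 at day 1 (-0.74 ± 0.54, adjusted p = 0.47), with day 1 replicate 1 within the day 0 range. Of the 27 naive genes, 9 had day 1 replicate 1 over 2-fold above replicate 2 and none the reverse, where over all tested genes 3.66% were that much higher in replicate 1 and 6.93% in replicate 2. The 9, singled out after their values were seen, were Dppa3, Zfp42, Klf4, Prdm14, Tbx3, Zfp57, Nr0b1, Manba and Gbx2, with log2 ratios from 1.01 in Gbx2 to 1.54 in Dppa3. How far this spread of the day 1 pair sets the tests of the naive genes was not tested beyond the fits without 1 library.

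The 16 tested core pluripotency genes gave 0 calls in limma, 0 in edgeR and 1 higher in DESeq2 (1 higher and 0 lower at an unadjusted p under 0.05), with a median of 0.24. The median was 0.28 against day 0 replicate 1 alone and 0.04 against replicate 2 alone. Their summed level was 318089 and 376744 at day 0 and 406290 and 334655 at day 1. Pou5f1 (Oct4), the POU factor required for pluripotency, had 42644 and 45724 at day 0 and 58615 and 46511 at day 1 (0.24 ± 0.19, adjusted p = 0.51), and day 1 replicate 2 differed from day 0 by less than the spread within day 1. Sox2, its partner, had 15581 and 17788 at day 0 and 17174 and 15897 at day 1 (-0.01 ± 0.22, adjusted p = 0.99), with both day 1 libraries between the day 0 libraries. Sall4 had 10524 and 13292 at day 0 and 12182 and 11361 at day 1 (-0.01). Foxd3, a forkhead factor kept in pluripotent cells, had 682 and 2535 at day 0 and 4756 and 4518 at day 1, both day 1 libraries higher (1.82 ± 0.47, adjusted p = 0.067), but day 0 replicate 1 was far below replicate 2.

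Formative and primed epiblast genes rose. Of 27 tested, 14 rose (51.9%) and 1 fell, with a median log2 fold change of 1.24, the highest among the 47 lists compared, and 1.04 and 1.92 against day 0 replicates 2 and 1 alone. Both day 1 libraries lay above both day 0 libraries for 18 of the 27. Their summed level was 68357 and 92214 at day 0 and 197758 and 213435 at day 1.

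Otx2, a homeobox factor that moves Pou5f1 to the enhancers of the next state, had 1179.9 and 1216 at day 0 and 5640.4 and 6749 at day 1. Each pair was tight and the 2 pairs were far apart (2.36 ± 0.17, adjusted p = 9.7e-04), and the call held in each fit that left out a library, with library weights and with the 4 libraries alone. Sall2, a zinc finger factor of the Sall family, had 457 and 659 at day 0 and 4704 and 5326 at day 1 (3.19 ± 0.26, adjusted p = 0.0014), and held in the same fits. Pou3f1 (Oct6), a POU factor of the primed epiblast, had 1192 and 1989.8 at day 0 and 8842 and 9271 at day 1 (2.55 ± 0.30, adjusted p = 0.0036). The growth factor Fgf15 had 318 and 405 at day 0 and 2839 and 2623 at day 1 (2.92 ± 0.30, adjusted p = 0.0029). Fgf5, the ligand most used to mark the primed epiblast, had 265 and 43.9 at day 0 and 2075 and 2219.8 at day 1: the day 1 pair was tight, and day 0 replicate 1 was several fold above replicate 2 (4.30 ± 0.60, adjusted p = 0.0070). Sox3, a SoxB1 factor of epiblast and neural plate, had 169 and 259 at day 0 and 843 and 1007 at day 1 (2.13 ± 0.28, adjusted p = 0.0056). Pim2, a kinase that here moved opposite to Pim1 and Pim3, had 1403 and 4354 at day 0 and 12742 and 16438 at day 1 (2.55 ± 0.40, adjusted p = 0.012). The other rises were those of Zic2, a zinc finger factor (1.17), Grhl2, a factor of epithelial genes (1.44), Sema6a, a transmembrane semaphorin (1.24), and Plekha1 (1.03).

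Without day 0 replicate 1, 13 of the 14 rises were called, all but Grhl2 (0.96, adjusted p = 0.075). Without EB day 1 replicate 1, 9 were called, and without EB day 1 replicate 2, 4 (Otx2, Sall2, Fgf15 and Wnt8a). The 1 fall of the list was Krt18, a simple epithelial keratin described with its kind below. Lef1, the nuclear partner of β-catenin, had 369 and 2265 at day 0 and 4006 and 4419 at day 1: both day 1 libraries were high, day 0 replicate 2 stood nearer to them than to replicate 1, and the test was missed (2.20 ± 0.61, adjusted p = 0.084). Cdh2 (N-cadherin) had 109.8 and 455 at day 0 and 727 and 854 at day 1, with the same order (1.81 ± 0.51, adjusted p = 0.086).

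The de novo DNA methyltransferases rose together. Dnmt3b had 5128 and 19986 at day 0 and 52648 and 72315 at day 1 (2.61 ± 0.48, adjusted p = 0.021), and Dnmt3a had 3516 and 10729 at day 0 and 27699 and 30326 at day 1 (2.24 ± 0.41, adjusted p = 0.020). In both, day 1 stood above day 0, and day 0 replicate 1 was well below replicate 2. Against day 0 replicate 2 alone their log2 fold changes were 1.63 and 1.43 (adjusted p = 0.0050 and 0.0066). Neither was called when either day 1 library was left out (adjusted p = 0.073 and 0.16 for Dnmt3b, 0.082 and 0.14 for Dnmt3a). Dnmt3l, their catalytically inactive partner, had 5438 and 17644 at day 0 and 31718 and 13814 at day 1, and its groups overlapped (1.10 ± 0.55, adjusted p = 0.29). The maintenance enzyme Dnmt1 had 10307 and 18466 at day 0 and 17133 and 17421 at day 1 (0.32), with day 1 between the day 0 libraries. Tet1, which oxidises methylated cytosine, had 10999 and 36125 at day 0 and 14915 and 18808 at day 1, also between them. Of the 19 tested genes of DNA methylation and demethylation, these 2 rises were the only calls, and 7 were over 2-fold higher in day 0 replicate 2.

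Signalling ligands and receptors gave few calls per list. Limma called 1.75% of all tested genes higher and 1.55% lower, so a list of this size with no call or a single call does not stand out. Wnt8a, a Wnt ligand of the epiblast and later the streak, had 51.6 and 129 at day 0 and 708 and 1303 at day 1, with both day 1 libraries several fold above both day 0 libraries (3.54 ± 0.39, adjusted p = 0.0030). The other called Wnt ligands fell, Wnt7a from 223 and 65.3 to 12.1 and 11.98 (-3.23 ± 0.60, adjusted p = 0.021) and Wnt4 from 559 and 235 to 82.7 and 47.1 (-2.52 ± 0.53, adjusted p = 0.033), and neither was called without day 0 replicate 1 (adjusted p = 0.052 and 0.093). Sp5, a Wnt-induced zinc finger factor, had 1309 and 438 at day 0 and 37.05 and 38.3 at day 1, low in both day 1 libraries (-4.29 ± 0.48, adjusted p = 0.0030). Cdx1, a caudal factor that Wnt induces, had 104 and 99.7 at day 0 and 26.7 and 25.6 at day 1 (-1.92 ± 0.40, adjusted p = 0.033), and it was not called without day 0 replicate 1 (adjusted p = 0.058). Those 2 were the only calls among 25 tested Wnt targets and feedback genes.

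In the Nodal and Activin pathway, whose ligands signal through Smad2 and Smad3, 3 of 23 tested genes rose. Foxh1, the Smad partner at Nodal targets, had 1253 and 1764 at day 0 and 2988 and 2544 at day 1 (0.89 ± 0.19, adjusted p = 0.037). Skil, a Smad corepressor that the pathway induces, had 5470.3 and 10131 at day 0 and 14459 and 20596 at day 1 (1.21 ± 0.27, adjusted p = 0.044, in edgeR 0.053), and Fst, which binds Activin, had 73.5 and 141 at day 0 and 351 and 328 at day 1 (1.72 ± 0.28, adjusted p = 0.014). Of these, only Fst was called without day 0 replicate 1 (adjusted p = 0.012), and none without EB day 1 replicate 1 or without EB day 1 replicate 2. Nodal itself had 5148 and 2657 at day 0 and 5458 and 4924 at day 1 (0.49 ± 0.30, adjusted p = 0.39). Its inhibitors and targets Lefty1 and Lefty2 were not called (0.89 and 1.08). Lefty1 had 18444 and 2632 at day 0 and 8888 and 18639 at day 1, with both pairs over 2-fold apart. Lefty2 had 6364 and 1490.0 at day 0 and 7686 and 5481 at day 1, with the day 0 pair over 2-fold apart. Against day 0 replicate 2 alone Lefty2 was called higher (2.12, adjusted p = 0.0047), and against replicate 1 alone it did not differ beyond the spread (0.03, adjusted p = 0.95).

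Of 25 tested genes of FGF signalling and its feedback on the kinase ERK, Fgf5 and Fgf15 rose and Dusp14, a phosphatase, fell (-2.19 ± 0.38, adjusted p = 0.018), the latter not without EB day 1 replicate 1 or replicate 2 (adjusted p = 0.069 and 0.12). Bmp2, a BMP ligand at low level, had 36.2 and 28.5 at day 0 and 5.17 and 3.99 at day 1 (-2.58 ± 0.42, adjusted p = 0.014) and was the only call among 27 tested BMP and Id genes, lost without EB day 1 replicate 2 (adjusted p = 0.096). Id1, an Id factor that BMP induces and that serum-grown ES cells rely on, had 2889 and 3001 at day 0 and 3932 and 1942 at day 1 (-0.09 ± 0.31, adjusted p = 0.89), with the day 1 libraries on either side of day 0. Id2 (2393 and 1159 at day 0 and 1633 and 1576 at day 1) and Id3 (5313 and 1825 at day 0 and 3014 and 1922 at day 1) had both day 1 libraries between the day 0 libraries. Limma and edgeR called 0 of 22 tested Notch genes and 0 of 20 tested retinoic acid genes. Limma's shares over all tested genes were 1.75% higher and 1.55% lower, so these counts do not stand out. DESeq2 called 2 Notch genes higher and 2 lower and 1 retinoic acid gene higher and 3 lower, and at an unadjusted p under 0.05 limma had 3 and 6, and 2 and 4.

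Streak genes gave no call of a rise at day 1 in limma. Over all tested genes 1.75% rose, so 0 rises among 24 streak genes do not stand out. Of 24 tested, limma and edgeR called 0 higher and DESeq2 3 (5 at an unadjusted p under 0.05), and 2 fell, Sp5 and Cdx1. T (Brachyury), the T-box factor of nascent mesoderm, had 98.8 and 55.8 at day 0 and 31.9 and 47.9 at day 1, lower in both day 1 libraries than in both day 0 libraries without passing (-0.91 ± 0.40, adjusted p = 0.24). Eomes, a T-box factor of streak and endoderm, had 424 and 145 at day 0 and 796 and 728 at day 1, higher in both day 1 libraries (1.62 ± 0.39, adjusted p = 0.054). It passed against each day 0 library alone, with 2.39 (adjusted p = 5.4e-04) against replicate 2 and 0.84 (adjusted p = 0.0093) against replicate 1. Fgf8, a ligand of the streak, had 295 and 11.9 at day 0 and 244 and 292 at day 1: day 0 replicate 1 was at the day 1 level and replicate 2 far below, so that the change was -0.14 against the first and 4.38 against the second. Of 13 tested definitive endoderm genes limma and edgeR called 0 and DESeq2 1, as higher (3 higher and 0 lower at an unadjusted p under 0.05). Of 23 tested mesoderm genes only Foxc1, at 18.7 and 11.9 at day 0 and 0.862 and 1.60 at day 1, was called, as lower (-2.85 ± 0.60, adjusted p = 0.033), and not without day 0 replicate 1 (adjusted p = 0.087). EdgeR called 0 mesoderm genes higher and 1 lower, and DESeq2 3 and 1. At an unadjusted p under 0.05 limma had 8 higher and 1 lower, and the median of the list was 0.63.

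Neuroectoderm genes went both ways, with 3 of 24 higher and 2 lower. Sox3, Zic2 and Irx3 (32.9 and 20.2 at day 0 and 106 and 104 at day 1, with 1.98 ± 0.45, adjusted p = 0.043, in edgeR 0.052) rose. Nes, an intermediate filament of neural progenitors, had 4255 and 2773 at day 0 and 538 and 813 at day 1 (-2.38 ± 0.35, adjusted p = 0.0088), and the adhesion molecule Ncam1 had 884 and 833 at day 0 and 178 and 115 at day 1 (-2.57 ± 0.40, adjusted p = 0.011), both well below day 0 in both day 1 libraries. Of the 5 calls, Sox3 and Ncam1 were kept without EB day 1 replicate 1, and Nes alone without EB day 1 replicate 2.

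**Figure D2:**
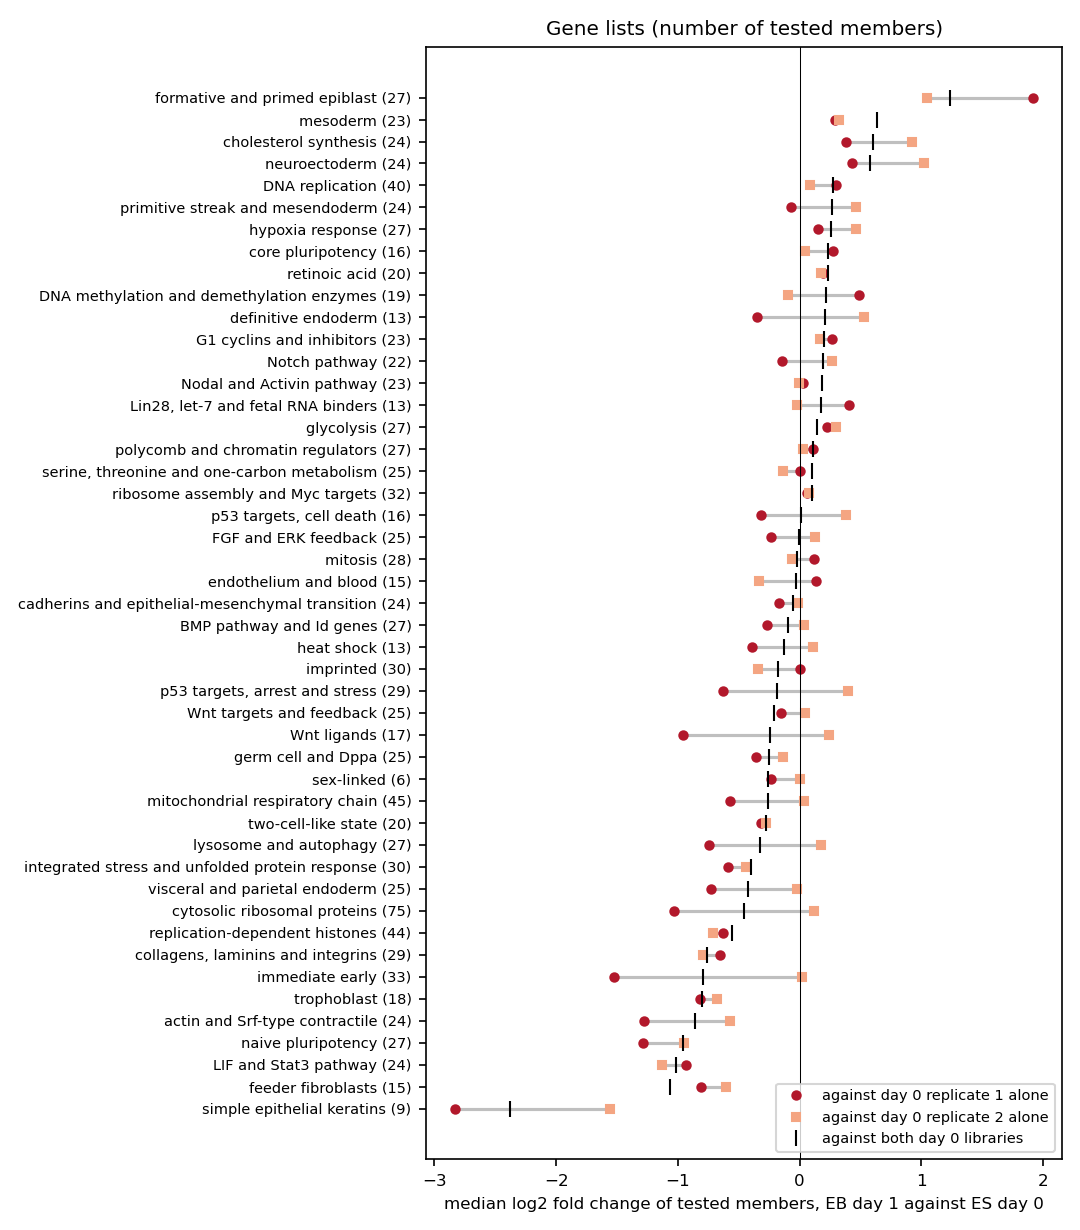
Median log2 fold change (x) of the tested members of each gene list (y, number tested in brackets), against day 0 replicate 1 alone (red circles), against replicate 2 alone (orange squares) and against both (black bars). The formative list stands highest at 1.24 and the keratins lowest at -2.38. For ribosomal protein and p53 target genes the orange squares lie above 0 and the red circles below it. The immediate early list has its orange square at 0.02 and its red circle at -1.53.

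Genes of actin, keratin and matrix were among those that fell. Of 24 tested contractile genes, many of them targets of serum response factor (Srf), 8 fell and none rose, with a median of -0.86. The median was -0.57 against day 0 replicate 2 alone and -1.28 against replicate 1 alone. Srf binds the CArG box, so the stretch upstream of Acta1 that holds one is shown, with those of Srf itself and of Actg1, in which the box was found and which did not pass the test (RefSeq, GRCm38.p6, box in capitals).

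Acta1 (chr8:123894819-123894868, minus strand): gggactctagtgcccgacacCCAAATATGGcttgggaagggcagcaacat

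Srf (chr17:46556195-46556264, minus strand): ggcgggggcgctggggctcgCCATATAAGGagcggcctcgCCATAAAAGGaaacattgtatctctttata

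Actg1 (chr11:120348556-120348605, minus strand): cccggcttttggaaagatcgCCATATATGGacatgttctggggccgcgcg

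The box starts at -73 from the annotated start in Acta1, at -82 and -62 in Srf and at -90 in Actg1. The box was searched on both strands as CC, then 6 bases of A or T, then GG. It was found for 8 of the 19 contractile genes with a window, for 1 of the 6 called lower and for 1.65% of tested genes with one. The list was drawn up around known Srf targets, so that share describes the choice of genes.

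Acta1, skeletal muscle α-actin, had 1245 and 775 at day 0 and 31.9 and 31.9 at day 1, and its day 1 libraries stood at nearly 1 value far below day 0 (-4.90 ± 0.52, adjusted p = 0.0029). Tagln, the actin-bundling transgelin, had 8891 and 4172 at day 0 and 526 and 452 at day 1 (-3.64 ± 0.41, adjusted p = 0.0030). Both held their calls in each fit that left out a library, with library weights and with the 4 libraries alone. Cald1, caldesmon, had 5748 and 3447 at day 0 and 1283 and 998 at day 1 (-1.97 ± 0.28, adjusted p = 0.0081). Cyr61, a secreted matricellular protein that serum and Yap induce, had 9749.7 and 1648 at day 0 and 339 and 188 at day 1, far apart at day 0 and low in both day 1 libraries (-3.98 ± 0.68, adjusted p = 0.016). Ankrd1, another gene known as a Yap target, had 327 and 67.7 at day 0 and 3.45 and 1.60 at day 1 (-5.47 ± 1.08, adjusted p = 0.026), Amotl2 had 12558 and 5939 at day 0 and 2321 and 2085 at day 1 (-1.97 ± 0.40, adjusted p = 0.030), Tpm1, a tropomyosin, had 22999.5 and 10981 at day 0 and 6285 and 4328 at day 1 (-1.61 ± 0.37, adjusted p = 0.047), and Tagln2 had 13951 and 6419 at day 0 and 4210.2 and 2605 at day 1 (-1.51 ± 0.34, adjusted p = 0.041). These last 4 were not called without day 0 replicate 1 (adjusted p = 0.087, 0.084, 0.12 and 0.084). The genes that were called were Acta1, Tagln and Cald1 without EB day 1 replicate 1, and Acta1 and Tagln without EB day 1 replicate 2. Srf had 6123 and 3356 at day 0 and 4965 and 3025 at day 1 and Actg1 6662 and 3557 at day 0 and 4112 and 3135 at day 1, with overlapping groups in both.

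Simple epithelial keratins, the filaments of the first embryonic epithelia, had the lowest median of all lists, -2.38 over 9 tested genes, of which 4 fell. Krt8 had 13918 and 4261 at day 0 and 712 and 375 at day 1 (-3.89 ± 0.49, adjusted p = 0.0048) and Krt18, its filament partner, 13732 and 4072 at day 0 and 824 and 720.2 at day 1 (-3.28 ± 0.49, adjusted p = 0.010). Krt19 had 1485 and 795 at day 0 and 199.9 and 216 at day 1 (-2.38 ± 0.44, adjusted p = 0.021) and Krt7 1443 and 223 at day 0 and 88.7 and 63.9 at day 1 (-2.90 ± 0.68, adjusted p = 0.0496). In all 9 genes day 0 replicate 1 was the higher of its pair, and against replicate 2 alone the median was -1.56, with Krt8, Krt18 and Krt7 called (-3.04, -2.40 and -1.56) and Krt19 not (adjusted p = 0.054). Without EB day 1 replicate 1 only Krt8 of the 4 was called, and without EB day 1 replicate 2 none (adjusted p = 0.060 for Krt8). The keratins are also in the trophoblast list, of which 5 of 18 tested genes fell. These were the same 4 keratins and the AP-2 factor Tfap2c, which had 3850.3 and 2022 at day 0 and 663 and 577 at day 1 (-2.17 ± 0.31, adjusted p = 0.0071). Tfap2c was not called in limma without EB day 1 replicate 2, with library weights (adjusted p = 0.067) or with the 4 libraries alone (adjusted p = 0.099).

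Some matrix genes fell, and the median of their list was similar against each day 0 library. Of 29 tested collagens, laminins and integrins 5 fell, with a median of -0.76, and -0.79 and -0.66 against day 0 replicates 2 and 1 alone. Lama1, the α chain of the first embryonic laminin, had 1937 and 2670.1 at day 0 and 299.8 and 356 at day 1 (-2.80 ± 0.27, adjusted p = 0.0029). The basement membrane collagens Col4a1, with 1879 and 1921 at day 0 and 675 and 734 at day 1 (-1.43 ± 0.19, adjusted p = 0.0056), and Col4a2, with 1494 and 1117 at day 0 and 243 and 248 at day 1 (-2.39 ± 0.26, adjusted p = 0.0029), fell together. They share a promoter region in the genome, lying head to head. Lama1, Col4a1 and Col4a2 were called in each fit without 1 library. Hspg2, the proteoglycan perlecan, had 16894 and 17779 at day 0 and 7052 and 7392 at day 1 (-1.26 ± 0.23, adjusted p = 0.020), and the fibrillar collagen Col1a2 had 391 and 217 at day 0 and 58.6 and 50.3 at day 1 (-2.40 ± 0.45, adjusted p = 0.023). Without either day 1 library in turn, Hspg2 and Col1a2 were not called (adjusted p = 0.086 and 0.12 for Hspg2, 0.079 and 0.15 for Col1a2), and Col1a2 was not called without day 0 replicate 1 either (adjusted p = 0.057).

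Some genes of the integrated stress response, in which Atf4 induces amino acid synthesis, fell as well. Of 30 tested genes of this and the unfolded protein response 7 fell and none rose (median -0.40). The median was -0.44 against day 0 replicate 2 alone and -0.58 against replicate 1 alone. Atf4 had 14803 and 11636 at day 0 and 4567 and 6148 at day 1 (-1.31 ± 0.20, adjusted p = 0.010). Asns, asparagine synthetase, had 21433 and 12227 at day 0 and 5245 and 3915 at day 1 (-1.84 ± 0.27, adjusted p = 0.0086). Psat1, an enzyme of serine synthesis, had 18094 and 17968 at day 0 and 5924 and 6951 at day 1, with each pair nearly at 1 level (-1.49 ± 0.16, adjusted p = 0.0029), and Psph, the last enzyme of that pathway and outside this list, had 2438 and 2266 at day 0 and 1124 and 1151 at day 1 (-1.05 ± 0.16, adjusted p = 0.011). Nupr1, a stress-induced chromatin protein, had 641 and 646 at day 0 and 70.6 and 136 at day 1 (-2.70 ± 0.38, adjusted p = 0.0071). Atf3 had 862 and 239.8 at day 0 and 38.8 and 60.7 at day 1 (-3.20 ± 0.57, adjusted p = 0.019), Mthfd2, a mitochondrial folate enzyme, 4681 and 5829 at day 0 and 2933 and 2779 at day 1 (-0.87 ± 0.20, adjusted p = 0.048), and Cebpb 680.5 and 318 at day 0 and 177 and 155 at day 1 (-1.48 ± 0.34, adjusted p = 0.048), the last not called without day 0 replicate 1 (adjusted p = 0.091). Without EB day 1 replicate 1, Asns, Psat1 and Nupr1 of the 7 were called, and without EB day 1 replicate 2, Atf4, Psat1 and Nupr1. Chac1, which degrades glutathione and is an Atf4 target, went another way at day 0, with 129.5 and 1839, and had 157 and 549 at day 1 (-0.73 ± 0.98, adjusted p = 0.70).

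Under the rule for named genes, which takes those with a mean of at least 10 CPM (reads scaled to a common library total) in the higher group, the largest rises were those of Enpp2, Fgf5, Bcl11a, Grm6, Cxcl12, Wnt8a, Hlf, Vrtn, Sall2, Ccno, Cdk5r2 and Zfp608. Enpp2 (autotaxin), a secreted enzyme that makes lysophosphatidic acid, had 25.2 and 226 at day 0 and 1861 and 3693 at day 1 (5.09 ± 0.76, adjusted p = 0.010). Cxcl12, the chemokine that binds Cxcr4, had 88.9 and 78.4 at day 0 and 602 and 1722 at day 1: the day 0 pair was tight and the day 1 pair further apart (3.59 ± 0.40, adjusted p = 0.0030). Vrtn had 285 and 638 at day 0 and 3577 and 4419.6 at day 1 (3.22 ± 0.31, adjusted p = 0.0029), and Cdk5r2, an activator of the kinase Cdk5, had 49.4 and 70.05 at day 0 and 419 and 624 at day 1 (3.10 ± 0.32, adjusted p = 0.0029). These 3, with Wnt8a and Sall2, were called in each fit without 1 library. Bcl11a, a zinc finger repressor, had 14.3 and 222 at day 0 and 868 and 1067 at day 1 (4.05 ± 0.90, adjusted p = 0.042), with day 0 replicate 1 far below replicate 2. Grm6, a glutamate receptor, Hlf, a bZIP factor, Ccno, cyclin O, and Zfp608 had log2 fold changes of 3.83, 3.23, 3.12 and 2.96. Bcl11a, Grm6, Hlf and Ccno were called neither without EB day 1 replicate 1 (adjusted p = 0.13, 0.067, 0.082 and 0.11) nor without EB day 1 replicate 2, Bcl11a was not called by edgeR, and Enpp2, Fgf5 and Zfp608 not without EB day 1 replicate 2 (adjusted p = 0.10, 0.079 and 0.13).

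Under the same rule, and so without lower genes such as Ankrd1, the largest falls were those of Synpo2l, Acta1, Socs3, Mras, Sp5, Cyr61, Krt8, Thbs1, Tinagl1, Tagln, Ly6g6e and Csf1. Synpo2l, an actin-binding protein of the sarcomere, had 406 and 393 at day 0 and 15.5 and 8.78 at day 1, with nothing between the pairs (-4.98 ± 0.49, adjusted p = 0.0029). Mras, a small GTPase of the Ras family, had 967 and 1735 at day 0 and 94.8 and 35.9 at day 1 (-4.45 ± 0.48, adjusted p = 0.0029). Thbs1, the matricellular thrombospondin 1, had 6079 and 3279 at day 0 and 582.4 and 196 at day 1 (-3.72 ± 0.60, adjusted p = 0.012), and Csf1, the growth factor of macrophages, 347 and 414 at day 0 and 24.98 and 35.1 at day 1 (-3.63 ± 0.55, adjusted p = 0.010). Ly6g6e had 1472 and 199 at day 0 and 44.8 and 40.7 at day 1 (-3.64 ± 0.72, adjusted p = 0.026) and Tinagl1 810.0 and 277 at day 0 and 40.5 and 31.9 at day 1 (-3.68 ± 0.75, adjusted p = 0.030), both higher in day 0 replicate 1, and Tinagl1 was not called without that library (adjusted p = 0.092). Ly6g6e and Csf1 were called neither without EB day 1 replicate 1 (adjusted p = 0.098 and 0.058) nor without EB day 1 replicate 2 (adjusted p = 0.16 and 0.069), and Thbs1 not without EB day 1 replicate 2 (adjusted p = 0.11).

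Smaller groups had few calls, where limma called 1.75% of all tested genes higher and 1.55% lower. Of 30 tested imprinted genes 3 rose, Magel2 with 76.8 and 123 at day 0 and 485 and 734 at day 1 (2.60 ± 0.28, adjusted p = 0.0029), Usp29 (2.13) and the proteoglycan gene Dcn (2.20 and 1.19 at day 0 and 32.7 and 20.8 at day 1). Of 27 tested glycolysis genes, the lactate carrier Slc16a3 (2934 and 5347 at day 0 and 12028 and 10880.1 at day 1, with 1.53 ± 0.25, adjusted p = 0.014) and Pfkm (0.79 ± 0.18, adjusted p = 0.047, in edgeR 0.054) rose. Among 27 hypoxia genes only Egln3, an oxygen-sensing hydroxylase, was called (537 and 563 at day 0 and 1611 and 3714 at day 1; 2.15 ± 0.38, adjusted p = 0.019). DESeq2 had 4 hypoxia genes higher and 1 lower, and 6 glycolysis genes higher and 1 lower. At an unadjusted p under 0.05 limma had 6 and 2 for hypoxia, and 7 and 2 for glycolysis. Both day 1 libraries lay above both day 0 libraries for 10 of the 27 hypoxia genes and 9 of the 27 glycolysis genes. Of 24 cholesterol genes 2 rose, among them Lss (0.99 ± 0.21, adjusted p = 0.034). DESeq2 had 7 higher and 0 lower, and limma 14 higher and 0 lower at an unadjusted p under 0.05. Where 19.8% of all tested genes had both day 1 libraries above both day 0 libraries, 13 of these 24 did. Against day 0 replicate 2 alone 9 of them were called higher and none lower, and against replicate 1 alone 6 and 1. Mycl1, a Myc family factor, had 563 and 413 at day 0 and 1508 and 1891 at day 1 (1.81 ± 0.20, adjusted p = 0.0030), while Myc had 1047 and 3793 at day 0 and 3471 and 2005 at day 1, with overlapping groups (0.40 ± 0.51, adjusted p = 0.69). Bag3, a co-chaperone, had 1112 and 1076 at day 0 and 1993 and 2000.2 at day 1 (0.87 ± 0.16, adjusted p = 0.021). The lysosome and autophagy list had 3 falls of 27, its regulators Tfeb (857 and 1144 at day 0 and 338 and 171 at day 1; -2.04 ± 0.36, adjusted p = 0.020) and Mitf (-1.29 ± 0.29, adjusted p = 0.042) and the autophagy kinase Ulk1 (15523 and 9433 at day 0 and 5399 and 4149 at day 1; -1.35 ± 0.23, adjusted p = 0.015). The median of that list changed sign with the day 0 library, at 0.18 against replicate 2 alone (2 higher, 3 lower) and -0.75 against replicate 1 alone (2 higher, 18 lower). Kit, a receptor of germ cells and ES cells, had 4921 and 2478 at day 0 and 1021 and 1448 at day 1 (-1.52 ± 0.34, adjusted p = 0.044). Of the calls in this paragraph, Magel2 and Mycl1 were the only ones that held in each fit without 1 library.

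In signalling and lineage lists the counts called against each day 0 library alone differed too, as they did over all tested genes. Whether any of these lists differed from all tested genes in this was not tested. Against replicate 2 alone, 3 Nodal and Activin genes were called higher and 1 lower, and against replicate 1 alone 4 and 5. Wnt ligands had 2 higher and 0 lower against replicate 2 alone and 1 and 3 against replicate 1 alone, with medians of 0.24 and -0.96. Wnt targets had 2 and 1 against replicate 2 alone and 5 and 3 against replicate 1 alone. FGF genes had 3 and 2, then 4 and 4, and BMP and Id genes 1 and 2, then 3 and 6, in the same order. In each of these lists more genes were called lower against replicate 1 than against replicate 2, as over all tested genes. Streak genes had 5 higher and 1 lower against replicate 2 alone and 4 and 4 against replicate 1 alone, and mesoderm genes 2 and 0, then 4 and 1. Neuroectoderm genes had 3 and 3, then 6 and 3, and trophoblast genes 1 and 6, then 4 and 6. Imprinted genes had 3 and 1, then 6 and 6, glycolysis genes 3 and 0, then 7 and 5, and hypoxia genes 1 and 0, then 2 and 3.

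No gene was called by limma among 40 of DNA replication (median 0.28), 28 of mitosis (-0.02), 23 G1 cyclins and inhibitors (0.20), 20 of the two-cell-like state (-0.28), 44 replication-dependent histones (-0.55), 13 Lin28 and let-7 genes (0.18) and 15 of endothelium and blood (-0.03). EdgeR called 0 genes in each of these lists as well. DESeq2 called 1 lower among DNA replication genes, 1 lower in mitosis, 1 higher among G1 genes, 1 higher and 1 lower in endothelium and blood, and 0 in the other 3 lists. At an unadjusted p under 0.05 the 7 lists, in the order given, had 4, 0, 4, 0, 0, 1 and 3 genes higher and 1, 1, 1, 1, 4, 0 and 2 lower. The histone list summed to only 1036 to 1621 normalised counts per library. Over all tested genes limma called 1.75% higher and 1.55% lower. The DNA replication list had a median of 0.30 against day 0 replicate 1 alone and 0.08 against replicate 2 alone.

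Markers of other cells were checked for what the cultures could hold besides pluripotent cells. The 15 tested feeder fibroblast genes summed to 49551 and 46487 at day 0 and 33434 and 39049 at day 1, and of these 1 rose (Dcn) and 2 fell (Tagln and Col1a2). Their levels were unequal: Fn1 had 30586 and 31090.3 at day 0 and 27624 and 33840.5 at day 1, Vim 5335 and 7609 at day 0 and 3276 and 2819 at day 1 and Col1a1 143 and 487 at day 0 and 51.7 and 65.5 at day 1, while Dcn stood at 2.20 and 1.19 and Postn at 19.8 and 3.56 at day 0. Of the 15, 1 was called higher and 1 lower against day 0 replicate 2 alone, and 1 and 5 against replicate 1 alone. The 25 tested visceral and parietal endoderm genes summed to 62337 and 54449 at day 0 and 42553 and 38938 at day 1, with 4 lower (Lama1, Col4a1, Col4a2 and Cited1) and 1 higher (Fst). Among its members, Apoe had 29424 and 9035 at day 0 and 10442 and 7998 at day 1 and Afp 1.10 and 0 at day 0 and 0.862 and 0 at day 1. Sox17, of the definitive endoderm list, had 21.95 and 8.31 at day 0 and 12.9 and 11.98 at day 1. Endothelium and blood genes summed to 2609 and 3321 at day 0 and 3045 and 2624 at day 1. The part of such cells in any result was not tested.

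The 2 day 0 libraries differed over groups of related genes. Replicate 1 was over 2-fold higher than replicate 2 for 2056 genes (13.0%) and over 2-fold lower for 1889 (11.9%), and 799 genes were past 4-fold. These ratios compare 1 library with 1 library and carry no test. Immediate early genes, which growth factors and stress switch on within minutes, had a median log2 ratio of 1.52, with 23 of 33 tested genes over 2-fold higher in replicate 1, none in replicate 2, and 31 of 33 higher in replicate 1. Fos had 5859.9 and 144 at day 0 and 139 and 65.5 at day 1, Fosb 2307 and 29.7 and 23.3 and 7.19, and Egr1 10970.2 and 1627 and 3232 and 973. In Fos and Fosb replicate 1 stood far above the other 3 libraries. Their log2 fold changes were -5.93 and -7.36 against replicate 1 alone and -0.59 and -1.12 against replicate 2 alone. Over the list 22 genes were called lower against replicate 1 alone, and 3 lower and 1 higher against replicate 2 alone. Against both libraries 4 were called, all lower: Junb, Atf3, Cyr61 and Fosl2 (926 and 499 at day 0 and 80.98 and 207 at day 1; -2.38 ± 0.49, adjusted p = 0.030). Of these 4, only Junb was called without EB day 1 replicate 1 and none without EB day 1 replicate 2 (adjusted p = 0.15 for Junb), and Fosl2 was not called without day 0 replicate 1 (adjusted p = 0.090).

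CArG boxes were found for 3 of the 24 immediate early genes with a window, and the stretches of Egr2 (its second annotated start) and Zfp36 are shown for comparison with Acta1 above. Zfp36 codes for tristetraprolin, which destabilises messenger RNA.

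Egr2 (chr10:67537777-67537826, plus strand): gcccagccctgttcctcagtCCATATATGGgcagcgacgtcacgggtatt

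Zfp36 (chr7:28379257-28379306, minus strand): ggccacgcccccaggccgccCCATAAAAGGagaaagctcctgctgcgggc

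The box starts at -72 in Egr2 and at -58 in Zfp36. Egr2 had 106 and 4.75 at day 0 and 24.98 and 15.2 at day 1, and Zfp36 1950.4 and 680.3 at day 0 and 607 and 493 at day 1: replicate 1 of day 0 was the highest of the 4 libraries in both. The cyclic AMP response element TGACGTCA, a palindrome bound by Creb and Atf factors, was found for 4 of the 24 and for 3.40% of tested genes with a window.

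Targets of p53, the stress-responsive factor that arrests or kills damaged cells, were also higher in day 0 replicate 1. Of 29 tested arrest and stress targets 23 were higher there, 10 by over 2-fold and 1 the other way, with a median log2 ratio of 0.78. Cdkn1a (p21), the inhibitor of cyclin-dependent kinases, had 9923 and 1272 at day 0 and 1931 and 1738 at day 1, so that it changed by -2.44 against replicate 1 and by 0.53 against replicate 2. Phlda3 had 9881 and 1536 at day 0 and 2515 and 1767 at day 1, and Mdm2, the ligase that degrades p53, 10751 and 4282 at day 0 and 5996 and 5489 at day 1, both with day 1 between the day 0 libraries. In 14 of the 29, and in 9 of the 16 tested cell death targets, both day 1 libraries lay between the day 0 libraries, as they did for 20.0% of all tested genes. Trp53 itself had 13030.3 and 15250.1 at day 0 and 19926 and 15542 at day 1 (0.32 ± 0.18, adjusted p = 0.35), and its day 0 libraries differed little. Of the 29, 13 were called lower and 3 higher against replicate 1 alone, with a median of -0.63, and 1 each way against replicate 2 alone, with a median of 0.40. Against both day 0 libraries only Sesn1 (1.06 ± 0.24, adjusted p = 0.041) and Perp (-1.65 ± 0.27, adjusted p = 0.014) of the arrest and stress list were called. Sesn1 was not called without day 0 replicate 1 (adjusted p = 0.085), nor was Perp without EB day 1 replicate 2 (adjusted p = 0.11).

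Ribosomal protein genes differed in 1 direction between the day 0 libraries. All 75 tested genes of cytosolic ribosomal proteins were higher in day 0 replicate 1, 45 of them by over 2-fold, with a median log2 ratio of 1.15. They summed to 1575210 and 733135 normalised counts at day 0 and 862344 and 764010 at day 1, so that day 1 stood near replicate 2. Rps15 had 58287 and 18522 at day 0 and 26542 and 20259 at day 1, and Rps10 12495 and 3612 at day 0 and 4764 and 3812 at day 1. Against replicate 1 alone 63 of the 75 were called lower, with a median of -1.03, against replicate 2 alone none, with a median of 0.12, and against both none (0 in edgeR and 1 lower in DESeq2, with 0 higher and 3 lower at an unadjusted p under 0.05). Ribosomal protein genes have many processed pseudogenes, and how the authors' counting split such reads is not given in the sources used here. Of 45 tested genes of the mitochondrial respiratory chain 43 were higher in replicate 1 (median ratio 0.62), with 25 called lower against it and none against replicate 2. Against both, limma, edgeR and DESeq2 called 0 of the 45 (0 higher and 2 lower at an unadjusted p under 0.05). Of 27 lysosome and autophagy genes 12 were over 2-fold higher in replicate 1 and none in replicate 2.

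**Figure D3:**
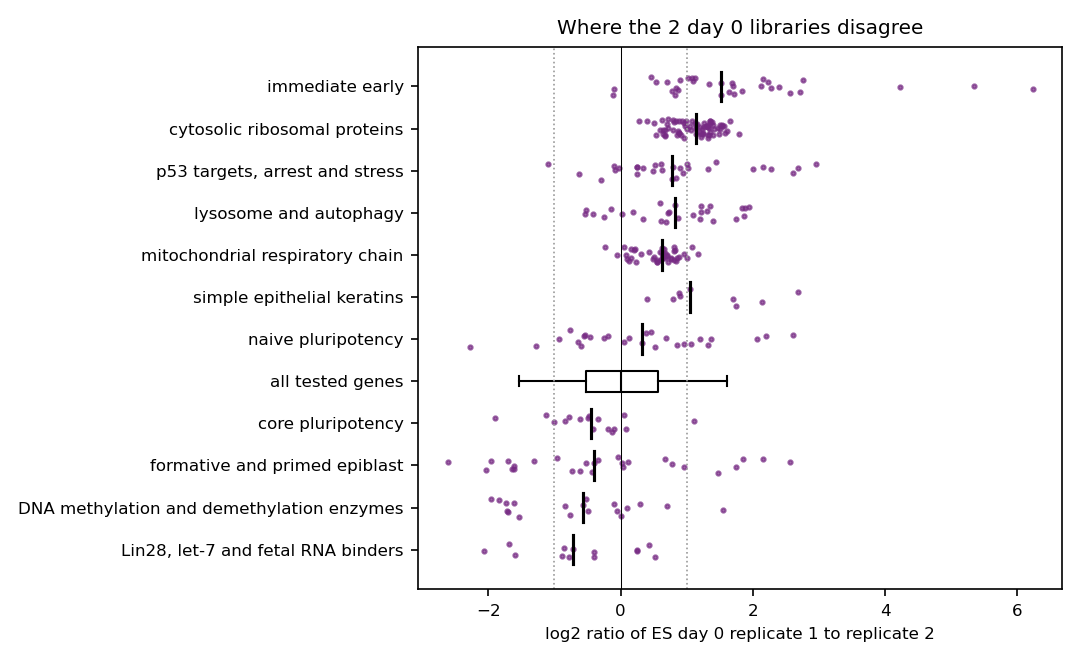
Log2 ratio of ES day 0 replicate 1 to replicate 2 (x) for the tested members of 11 gene lists (points, with a bar at the median) and for all tested genes (box, quartiles with whiskers at the 5th and 95th percentiles); dotted lines mark 2-fold. All 75 ribosomal protein genes lie right of 0, and the medians of the core, formative, DNA methylation and Lin28 lists lie left of it.

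In the other direction, day 0 replicate 2 was higher for most core pluripotency genes. Of 16 core genes 13 were higher in replicate 2, with a median log2 ratio of -0.44. The naive list went the other way, with 16 of 27 higher in replicate 1, 7 over 2-fold higher there and 2 in replicate 2, and a median of 0.33. Of 27 formative genes 8 were over 2-fold higher in replicate 2 and 5 in replicate 1, with a median of -0.41. DNA methylation and demethylation genes had a median of -0.57 and a summed level of 70166 and 147776 at day 0, against 193778 and 196847 at day 1. The Lin28 and let-7 list had a median of -0.72, with Lin28b at 691 and 2100.2 and Trim71, a let-7 target, at 1946 and 6291. By the rule for named genes, which here takes a mean of at least 10 CPM at day 0, the widest gaps in favour of replicate 2 included those of Spink3 (log2 ratio -4.02), Ccnd2 (-3.90), Chac1 (-3.82), Inhbb (-3.67), Ttn (-3.32), Spna1 (-3.05), Exoc3l (-2.86), Pcyt1b (-2.71), Dapp1 (-2.69), Sned1 (-2.67) and Lef1 (-2.62). Ccnd2, cyclin D2, had 245 and 3665 at day 0 and 5645 and 7174 at day 1: day 0 replicate 2 stood near day 1, and replicate 1 far below. Inhbb, a subunit of Activin B, had 169 and 2170.3 at day 0 and 341 and 94.2 at day 1, with replicate 2 alone high.

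Under the same rule, and so without lower genes such as Fgf8 and Copz2, the widest gaps in favour of replicate 1 were those of Fosb (6.23), Fos (5.34), Fabp3 (3.77), Sept4 (3.42), Ldhb (3.36), Macrod1 (3.25), Mobp (3.04), Cdkn1a (2.96), Ly6g6e (2.88), Pga5 (2.86), Anxa8 (2.85) and Lefty1 (2.81). Fabp3, a fatty acid binding protein, had 7926 and 581 at day 0 and 463 and 248 at day 1. Of these 12, Ly6g6e and Pga5 were called lower at day 1 against both libraries (-3.64 and -3.56), and Pga5 was not without day 0 replicate 1 (adjusted p = 0.071).

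Day 1 resembled day 0 replicate 2 more than replicate 1. The day 1 mean lay nearer to replicate 2 for 11066 of the 15841 tested genes (69.9%), and the median absolute log2 difference from it was 0.576 for replicate 1 and 0.281 for replicate 2. Both day 1 libraries lay between the day 0 libraries for 3169 genes (20.0%), 1447 of them with day 0 libraries over 2-fold apart.

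**Figure D4:**
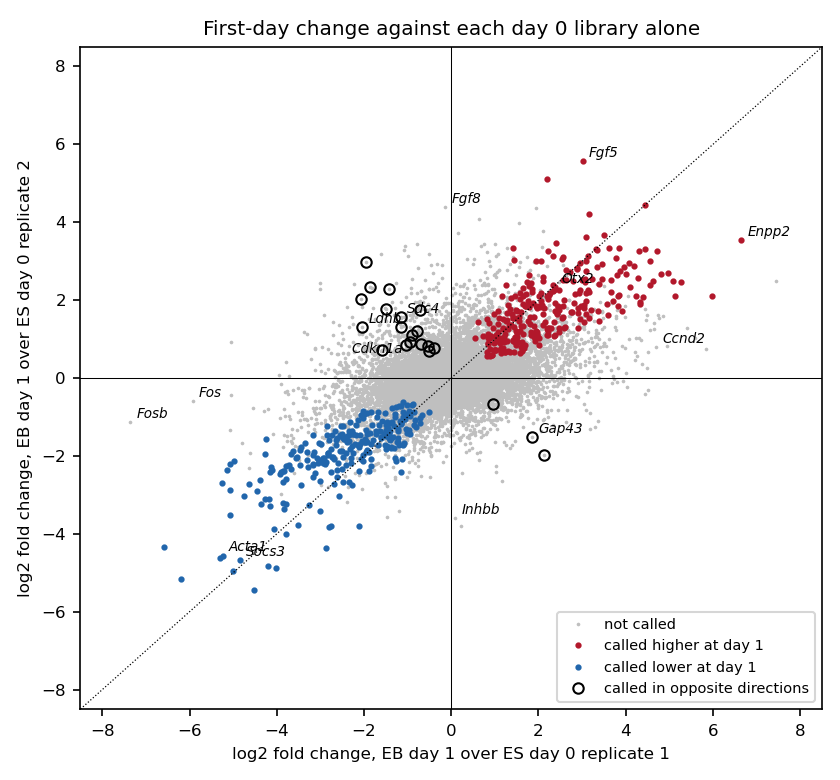
Log2 fold change of EB day 1 over ES day 0 replicate 1 alone (x) and over replicate 2 alone (y) for the 15841 tested genes, with genes called against both libraries together in red (277 higher) and blue (246 lower), and rings around the 21 genes called in opposite directions. Genes such as Fos and Fosb lie far left and near 0 on y, and Fgf8 high on y and near 0 on x.

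Which first-day calls rested on a single day 0 library was counted gene by gene. Of the 277 rises 192 were also called against each day 0 library alone, and the other 85 were not called once replicate 1 was left out. Of the 246 falls 148 were called against each, and the other 98 were not called once replicate 1 was left out. All 523 calls held when replicate 2 was left out. Of the 523 called genes 138 had day 0 libraries over 2-fold apart. A further 32 genes were called higher and 19 lower against each day 0 library alone without being called against both.

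In 21 genes the direction itself depended on the day 0 library. In 18 of them day 1 was called higher without replicate 1 and lower without replicate 2, and in 3 the reverse. Sdc4, a membrane proteoglycan, had 6353 and 970.0 at day 0 and 3048 and 2679.7 at day 1, a change of 1.56 (adjusted p = 0.0020) against replicate 2 and -1.15 (adjusted p = 0.0012) against replicate 1. Ldhb, a subunit of lactate dehydrogenase, had 27317 and 2664 at day 0 and 7724 and 5648 at day 1, with changes of 1.31 and -2.05 against replicates 2 and 1. Gstm3, a glutathione transferase, had 585 and 33.2 at day 0 and 177 and 110.2 at day 1 (2.04 and -2.06), and Copz2, a coatomer subunit, 326 and 16.6 at day 0 and 77.5 and 101 at day 1 (2.34 and -1.87). The p53 target Trp53inp1 (1.10 and -0.90) and the autophagy genes Sqstm1 (0.84 and -1.03) and Gabarapl1 (0.94 and -0.95) were of this kind, and so were Ush1c, Pdlim4, Atp2a1 and Slc30a3. The 3 in reverse included Gfra2, a receptor of the GDNF family, with 4.39 and 91.4 at day 0 and 22.4 and 22.4 at day 1, and Gap43, a growth cone protein, with 50.5 and 532 at day 0 and 178 and 192 at day 1. In all 21 the day 1 libraries lay between the day 0 libraries. At the later days Sdc4 had 1956 and 2016 at day 2, 1712 and 1928 at day 3 and 1428 and 1327 at day 4, and Ldhb 8244 and 7938 at day 2, 7753 and 7769.8 at day 3 and 6805 and 5321 at day 4.

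**Figure D5:**
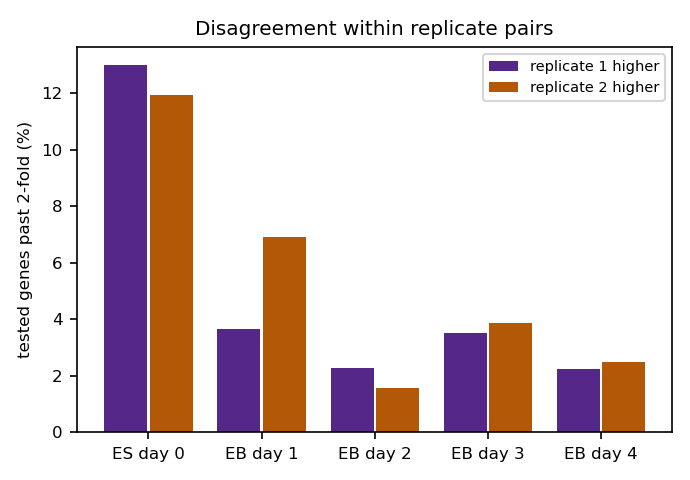
Share of the 15841 tested genes (y, percent) that differ by over 2-fold between the 2 libraries of each day (x), split by which replicate is higher. ES day 0 stands at 13.0% and 11.9%, EB day 1 at 3.66% and 6.93%, and the later days are lower than day 0.

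The day 1 libraries differed by over 2-fold in fewer genes. Some of those apart at day 0 were apart here too, and 6 of the 33 immediate early genes were over 2-fold higher in day 1 replicate 1 and 1 in replicate 2. Of 27 tested hypoxia genes 9 were over 2-fold higher in day 1 replicate 2 and none in replicate 1, among them Adm, the peptide adrenomedullin (71.3 and 24.9 at day 0 and 93.9 and 327 at day 1), Ero1l (1383 and 1966 at day 0 and 1697 and 4451 at day 1) and Bhlhe40 (2563 and 1218 at day 0 and 717 and 1889 at day 1). Their median log2 ratio of replicate 1 to 2 was -0.58 at day 1 and 0.33 at day 0. This group and the naive genes above were singled out after their values were seen.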

How the data were processed

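RNA of 4 libraries (ES day 0 and EB day 1, 2 each) was compared within the E14 time course of 10. Paired-end sequencing followed a TruSeq kit (RNA integrity number over 9.5), per the labels' protocols. The submitters' processing notes list HTSeq 0.5.4 and Bowtie2, the build mm9, DESeq2, SAMtools 0.1.19 and FastQC 0.11.3, without their roles. The deposited signal, tested on the values, was the read count divided by 1 size factor per library, and 100% of values gave whole reads within 1e-06. The deposited values were fitted for all 10 libraries (20104644 to 39835808 reads each) with limma 3.58.1 in R 4.3.3, with an intensity trend, on log2(value + 1), after edgeR's filterByExpr on the recovered reads, with 5 residual and 4.98 prior degrees of freedom, and Benjamini-Hochberg adjustment over 15841 genes. The fit was tested on simulated data with known changes, in which a gene had the same spread on all days. That setting lacks the wider spread of day 0, so it cannot show how the fit behaves there. EdgeR 4.0.16 and DESeq2 1.42.0 on the recovered reads, other pseudocounts, filters, weights, scalings and fits without each library were alternatives.

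The 47 gene lists, the members and the tests were chosen with earlier results of these data known, and the lists (1046 of 1119 genes tested) carry no test of their own. The rule names the 12 largest rises, falls and day 0 ratios each way among genes with a mean of at least 10 CPM in the higher group (for ratios, at day 0), leaving out Gm, Rik and LOC symbols, up to 3 members of each list, up to 8 opposite calls each way and a set of pluripotency, signalling and stress genes. Some genes that the rule picks are not reported here. Other genes named to complete a count or a group were chosen after their values were seen. Symbols are those of the table, which holds no positions. Of the lists' members, 58 were in the table and did not pass the filter, 54 of them below 10 in all 4 libraries. How reads on overlapping genes or repeated sequences were counted is not given in the sources used here. The genotype table and the 16 ChIP-seq and input samples were not used here.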

Additional observations from a re-analysis of the deposited data

How the results depend on the processing

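The counts of calls depended on the libraries and the tool. DESeq2 called 673 genes higher and 777 lower (466 and 608 by over 2-fold), a mean of at least 10 CPM left 124 and 118 (105 and 107), the 4 libraries alone gave 4 and 6 (all over 2-fold), and library weights 23 and 18 (all over 2-fold). Without 1 library, counts ranged from 25 to 2669 higher and 38 to 2474 lower (25 to 1626 and 38 to 1411 by over 2-fold). EdgeR, TMM scaling, pseudocounts of 0.5 and 8 and no filter kept all 4 counts within 1.5 times. With a mean of at least 10 CPM, 722 and 726 genes differed by over 2-fold between the day 0 libraries. Called against each day 0 library alone were 145 genes higher and 162 lower in edgeR, an alternative chosen after seeing the data, against 224 and 167, with 14 against 21 in opposite directions.

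Replicate numbers are shared across days. Deviations of same-numbered libraries from their day's mean correlated at -0.01 between days 0 and 1 and at -0.19 to 0.35 over all pairs of days, so the numbers were not taken to pair the samples. With the replicate number as a block, 291 genes were called higher and 255 lower (256 and 230 by over 2-fold).

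Among genes picked by the naming rule, some were called in opposite directions without ES day 0 replicate 1 and without replicate 2. In that order, their log2 fold changes were 2.28 and -1.42 in Atp2a1, 2.34 and -1.87 in Copz2, 0.94 and -0.95 in Gabarapl1, -1.52 and 1.85 in Gap43, -1.98 and 2.12 in Gfra2, 2.04 and -2.06 in Gstm3, 1.31 and -2.05 in Ldhb, 1.77 and -1.48 in Pdlim4, 1.56 and -1.15 in Sdc4, 1.31 and -1.14 in Slc30a3, 0.84 and -1.03 in Sqstm1, 1.10 and -0.90 in Trp53inp1 and 2.99 and -1.95 in Ush1c. Among the 90 called genes that the rule names, no alternative turned a sign, and 84 were called by edgeR, 71 without day 0 replicate 1, 45 without EB day 1 replicate 1, 25 without EB day 1 replicate 2 and 27 with library weights. The cause of these differences was not tested. How far read depth limits the smallest change that could be called was not tested.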

Other observations

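The ratio of the 2 libraries of a day varied with the length of the gene in the genome, from its first to its last annotated base (RefSeq, GRCm38.p6, 15757 tested genes with a value). Across genes, Spearman's correlation of length with the log2 ratio of replicate 1 to 2 was -0.18 at day 0, -0.30 at day 1, 0.01 at day 2, -0.15 at day 3 and -0.05 at day 4. With the genes split into 4 equal bins by length, the median day 0 ratio was 0.24 in the shortest bin, then 0.10, -0.04 and -0.20. The median log2 fold change of day 1 in the shortest and the longest bin was -0.15 and 0.16 against day 0 replicate 1 alone, and 0.08 and -0.05 against replicate 2 alone. Its part in the differences between the libraries was not tested.

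Psmb8 and Psme1 were 2 of the 21 genes called in opposite directions against the day 0 libraries, singled out after their values were seen, and other proteasome genes were not counted. Psmb8, a subunit of the immunoproteasome, had 453 and 80.7 at day 0 and 266 and 285 at day 1, and Psme1, a subunit of its activator, 3476 and 1491 at day 0 and 2552 and 2313 at day 1. In both, day 1 lay between the day 0 libraries.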
